A study of Homo sapiens with 6 samples.

Results

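ETV1, a transcription factor gene of the ETS family, was followed here together with 4 genes of the chromosomal regions it is tied to in LNCaP prostate cancer cells, and these were DGKB, MIPOL1, TTC6 and SLC25A21. The set was chosen by the counts of ETV1 in these same libraries, whose fall had been seen in earlier results, and the other 4 genes were added by position, so the difference between the lines is given for them as a description, without a test. They are 5 of the 35554 genes of the deposited count table, and all 5 were among the 19711 genes that passed the filter on low counts. The experiment was a bulk RNA-Seq comparison of parental LNCaP (n = 3 libraries) with LNCaP-enzaR (n = 3 libraries).

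LNCaP is an androgen-responsive human prostate cancer line derived from a lymph node metastasis. LNCaP-enzaR was derived from it by continuous culture with enzalutamide, an inhibitor of the androgen receptor, and was then kept on a lower amount of the drug. Whether the cells were harvested with enzalutamide still present is not stated in the labels, so selection and the drug itself cannot be told apart. LNCaP-enzaR is 1 selected line whose clonality was not stated, and the libraries of each line came from separate flasks, so p-values measure the spread between flasks and not between independently selected lines.

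ETV1 belongs with ETV4 and ETV5 to the PEA3 subfamily, whose proteins bind DNA through an ETS domain that reads a GGAA core and act downstream of growth factor and MAPK signalling. In prostate cancer, ETS genes are often switched on by rearrangement to a gene that is active in luminal cells. LNCaP is a known case in which the whole ETV1 gene from chromosome 7 is inserted into an intron of MIPOL1 on chromosome 14, a region that also holds FOXA1, the pioneer factor of luminal prostate cells. Read counts per gene do not say from which copy of ETV1 a read came, and whether the insertion was still present in LNCaP-enzaR was not tested.

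The RefSeq promoter windows of ETV1 and of TTC6 are shown because ETV1 carried the largest difference among the 5 genes and because TTC6 shares its promoter region with FOXA1. Each window runs 5′ to 3′ from 250 bases before to 50 bases after a transcript start, on build GRCh38.p14. ETV1 has 6 such windows on the minus strand, with starts spread over 5013 bases. The start of the outermost window, at position 13991425, is also the end of the gene in the count table. In that window the capitals mark TGAATGGA, a site read by the repressor CIC. In the window further inside, the capitals mark TGTTCT, the reverse complement of AGAACA, a half-site of the androgen response element. Among the ETV1 windows, TGAATGGA lay only in the outermost one. AGAACA, on either strand, lay only in the inner window and in a window overlapping it, with its start at 13990706. In the TTC6 window the capitals mark the 121 bases that also lie in the promoter window of FOXA1.
ETV1 outermost window, chr7:13991376-13991675, minus strand: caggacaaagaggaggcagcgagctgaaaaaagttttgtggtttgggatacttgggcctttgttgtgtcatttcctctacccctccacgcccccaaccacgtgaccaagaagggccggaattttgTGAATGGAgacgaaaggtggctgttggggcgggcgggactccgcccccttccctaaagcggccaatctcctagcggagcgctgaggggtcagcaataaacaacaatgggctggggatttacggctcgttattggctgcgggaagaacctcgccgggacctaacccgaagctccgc
ETV1 inner window, chr7:13990653-13990952, minus strand: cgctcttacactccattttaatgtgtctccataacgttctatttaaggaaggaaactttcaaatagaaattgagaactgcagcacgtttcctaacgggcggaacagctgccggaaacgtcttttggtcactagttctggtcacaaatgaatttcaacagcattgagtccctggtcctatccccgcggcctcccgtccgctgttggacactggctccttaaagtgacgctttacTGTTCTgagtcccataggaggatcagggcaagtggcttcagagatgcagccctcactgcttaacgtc
TTC6 window, chr14:37595379-37595678, plus strand: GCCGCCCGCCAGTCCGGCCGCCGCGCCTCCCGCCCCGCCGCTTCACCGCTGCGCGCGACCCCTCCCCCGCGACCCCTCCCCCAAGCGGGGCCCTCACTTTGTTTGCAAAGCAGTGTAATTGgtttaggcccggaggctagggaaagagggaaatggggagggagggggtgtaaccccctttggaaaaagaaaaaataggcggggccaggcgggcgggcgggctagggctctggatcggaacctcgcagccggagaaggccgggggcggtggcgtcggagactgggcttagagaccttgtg

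The outermost ETV1 window held 18 CpG dinucleotides and was 57.3% G or C, against medians of 14 and 58.7% over the 35116 RefSeq promoter windows of this length. TGAATGGA was found on either strand in 1.03% of all windows and AGAACA in 14.8%. The GGAA core of ETS factors was found in 95.5% of them, so its presence separates almost no promoter from another. Neither the second CIC site TGAATGAA nor the full androgen response element, AGAACA followed after 3 bases by TGTTCT, was present in the 3 windows shown. FOXA1 and TTC6 are transcribed head to head from starts 380 bases apart, and their gene bodies in the count table overlap by 213 bases. A match is only a run of letters and does not show that a factor was bound.

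The 6 libraries held between 77759122 and 98616465 counts, so that 3 counts corresponded to 0.0302 to 0.0382 CPM (counts per 1000000 of a library total adjusted with TMM factors). All 8 prostate luminal markers were measured in both lines, with summed levels of 4186 to 4265 CPM in parental LNCaP and 2803 to 3119 CPM in LNCaP-enzaR. KLK3, which codes for prostate-specific antigen, fell from 1189.6 ± 42.1 to 141 ± 9.26 CPM, while KRT8 rose from 397 ± 19.6 to 886 ± 122 CPM, so the markers did not move together. Their part in the results was not tested. The summed basal markers reached at most 1.71 CPM, the leukocyte markers at most 0.174 CPM and the endothelial markers at most 6.10 CPM. Of the fibroblast markers 3 were measured, mostly from COL1A1, at 12.7 to 15.7 CPM in parental LNCaP and 5.66 to 6.06 CPM in LNCaP-enzaR, while COL1A2 was not analysed here. KRT5, TP63 and CDH5 were at 0 in every parental library. LNCaP-enzaR replicate 1 stood apart from the other LNCaP-enzaR libraries, with a chi-square per degree of freedom of 35.6 and 28.2 against them, where the other same-line pairs lay between 5.56 and 9.06.

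ETV1 was among the more abundant transcripts of parental LNCaP and was nearly lost in LNCaP-enzaR. The gene lies on the minus strand of chromosome 7, from 13891229 to 13991425, and is listed as ENSG00000006468.14. Its counts were 34224, 32452 and 26724 in parental replicates 1 to 3. In LNCaP-enzaR they were 93, 104 and 113. Every LNCaP-enzaR library was therefore far below every parental library, and none was at background, since 93 counts in a library is well above the 3 counts taken as the floor.

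On the scaled level, ETV1 was at 356 ± 14.8 CPM in parental LNCaP and 1.13 ± 0.050 CPM in LNCaP-enzaR (mean ± SD, n = 3). This is a log2 fold change of −8.29 (SE 0.081), or a level 314-fold lower. In bulk RNA, fewer cells that express a gene and less RNA per cell cannot be told apart. Per length, with counts divided by the union of its annotated exons, the level went from 37.1 to 0.118 CPM per kilobase (RPKM). By RPKM, ETV1 ranked 1086 of 17528 protein-coding genes in parental LNCaP and 12497 in LNCaP-enzaR. Its log2 fold change was the 20th lowest of the 19711 genes tested.

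**Figure D1:**
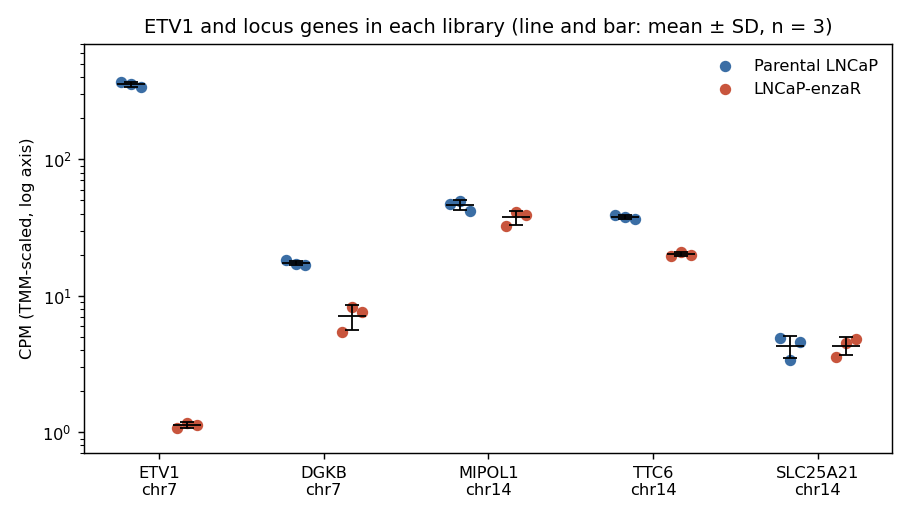
Level of the 5 genes in each library, in TMM-scaled CPM on a log axis; points are libraries, and lines with bars are mean ± SD (n = 3 per line). ETV1 fell from 356 to 1.13 CPM, DGKB and TTC6 were lower in every LNCaP-enzaR library, MIPOL1 was separated by less than 1 CPM between its nearest libraries, and SLC25A21 overlapped.

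DGKB, which codes for the beta form of diacylglycerol kinase and is the nearest protein-coding neighbour of ETV1 on chromosome 7, was also lower, by a much smaller factor. It is read from the same strand and lies from 14145049 to 14974777, 154 kb away from ETV1. Its level was 18.2, 17.2 and 16.9 CPM in the parental libraries and 5.41, 8.28 and 7.59 CPM in the LNCaP-enzaR libraries. The groups did not overlap, and LNCaP-enzaR replicate 1, the library that stood apart, was the lowest. The mean level was 17.4 ± 0.689 CPM against 7.09 ± 1.5 CPM, a log2 fold change of −1.30 (SE 0.124). Without LNCaP-enzaR replicate 1 it was −1.13.

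MIPOL1, which codes for a coiled-coil protein and hosts the inserted ETV1 gene in LNCaP, changed little in comparison. It lies on the plus strand of chromosome 14, from 37197913 to 37552361. Its level was 47.4, 49.7 and 41.8 CPM in the parental libraries and 32.7, 41.2 and 39.0 CPM in LNCaP-enzaR. The groups were just separated, since the lowest parental and the highest LNCaP-enzaR library differed by less than 1 CPM. The log2 fold change was −0.30 (SE 0.089), with a range of −0.37 to −0.20 as single libraries were left out, the smallest again without LNCaP-enzaR replicate 1.

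TTC6, a tetratricopeptide repeat gene on the other side of FOXA1, was lower in LNCaP-enzaR by a factor of 1.87. It is read from the plus strand of chromosome 14, from 37595847 to 38041442, 43.5 kb beyond MIPOL1. The parental libraries were at 38.9, 37.5 and 36.8 CPM and the LNCaP-enzaR libraries at 19.6, 21.1 and 19.9 CPM. Both groups were tight and well apart. The log2 fold change was −0.90 (SE 0.065), and it was −0.80 with upper-quartile scaling, which moved the median of all genes by 0.10.

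SLC25A21, a mitochondrial carrier of oxodicarboxylates, showed no difference in its mean. It is read from the minus strand of chromosome 14, from 36677921 to 37172606, with its start facing MIPOL1 25.3 kb away. Its level was 4.89, 3.41 and 4.61 CPM in parental LNCaP and 3.58, 4.52 and 4.82 CPM in LNCaP-enzaR, so the groups overlapped. The log2 fold change was 0.00 (SE 0.152). Of its exon bases 37.2% are shared with PAX9 and an antisense gene, and the strand setting of the counting was not stated, so reads in those bases cannot be assigned with certainty.

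The 5 genes therefore differed widely in the size of their change. For 4 of them the libraries of the lines did not overlap, as was also the case for 70.6% of all genes tested, and nothing is read from this count since the set was picked on the same contrast. On chromosome 14 the log2 fold changes were 0.00 for SLC25A21, −0.30 for MIPOL1 and −0.90 for TTC6, while ETV1 was at −8.29. FOXA1, which lies between MIPOL1 and TTC6 and is no member of the set, was at 440.6, 437.5 and 440.3 CPM in the parental libraries and 420.4, 433.8 and 418.8 CPM in LNCaP-enzaR. With a log2 fold change of −0.05 and an SE of 0.048 it did not pass the test (adjusted p = 0.378), and upper-quartile scaling turned it to 0.05. All adjusted p-values are from edgeR's quasi-likelihood test with Benjamini-Hochberg adjustment over the 19711 genes tested.

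Ratios within a library, which do not depend on the scaling between libraries, gave the same order. For each MIPOL1 count there were 7.80, 7.17 and 8.14 ETV1 counts in the parental libraries. In LNCaP-enzaR there were 0.033, 0.0286 and 0.0292. Against FOXA1, ETV1 had 0.773 to 0.839 counts per count in parental LNCaP and 0.00256 to 0.00272 in LNCaP-enzaR. For every 100 FOXA1 counts, TTC6 had 8.37 to 8.82 counts in parental LNCaP and 4.67 to 4.86 in LNCaP-enzaR, without overlap. MIPOL1 had 9.49 to 11.4 and 7.77 to 9.49, and these ratios overlapped at 9.49.

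**Figure D2:**
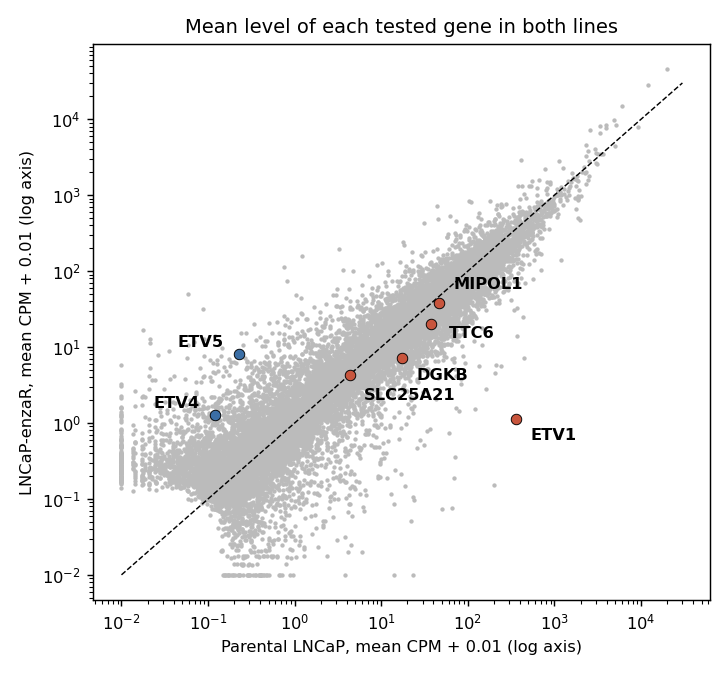
Mean level of each of the 19711 tested genes in parental LNCaP (x) and LNCaP-enzaR (y), in CPM plus 0.01 on log axes; the dashed line marks equal levels. The 5 locus genes are orange and the ETV1 relatives ETV4 and ETV5 blue. ETV1 lies far below the line at 356 and 1.13 CPM, and ETV5 above it at 0.216 and 8.04 CPM.

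The genes around ETV1 at its native site on chromosome 7 moved in both directions. A gene was called when its adjusted p was at most 0.05 and its fold at least 1.5, and 42.7% of all genes tested met this, 23.3% as higher and 19.5% as lower in LNCaP-enzaR. Within 3 Mb of ETV1, 17 of the 36 genes other than ETV1 and DGKB passed the filter, and 5 were higher and 6 lower, or 64.7%, with a median log2 fold change of 0.05 beside 0.01 over all genes. None of these 17 genes lay within 1 Mb of ETV1, where DGKB was the nearest gene that passed the filter.

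The largest difference with a mean of at least 5 CPM in this window was that of AGR2, a disulfide isomerase family protein of secretory cells. It was at 73.4, 73.6 and 70.3 CPM in parental LNCaP and 1.56, 1.71 and 1.42 CPM in LNCaP-enzaR, or 46.3-fold lower (log2 fold change −5.53, SE 0.087, with an adjusted p of 3.72e-15). Beside it, the tetraspanin gene TSPAN13 fell from 152 ± 5.44 to 34.4 ± 2.83 CPM (log2 fold change −2.15, adjusted p = 3.32e-12). BZW2, which codes for a regulator of translation initiation, fell from 137 ± 1.82 to 53.2 ± 1.52 CPM (log2 fold change −1.36, adjusted p = 3.35e-11). These 3 genes lie next to each other at the far end of the window, nearly 3 Mb from ETV1.

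On the other side, PHF14, which codes for a chromatin-binding protein with PHD fingers, fell from 95.2 ± 3.76 to 54.9 ± 0.368 CPM (log2 fold change −0.80, adjusted p = 1.49e-08). TMEM106B and VWDE, which lie between PHF14 and ETV1, rose. TMEM106B, which codes for a lysosomal membrane protein, rose from 42.7 ± 3.04 to 124 ± 17.8 CPM (log2 fold change 1.54, adjusted p = 2.4e-09). VWDE, a von Willebrand factor domain gene, rose from 0.646 ± 0.104 to 9.03 ± 0.673 CPM (log2 fold change 3.80, adjusted p = 1.75e-11).

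AGMO, which codes for an enzyme that cleaves ether lipids and follows DGKB on the chromosome, had 3, 0 and 1 counts in the parental libraries and 68, 72 and 63 in LNCaP-enzaR (adjusted p = 1.13e-06). It was close to silent in parental LNCaP and low in LNCaP-enzaR. AHR, the ligand-activated aryl hydrocarbon receptor, rose from 3.63 ± 0.386 to 5.45 ± 0.649 CPM (log2 fold change 0.59, adjusted p = 0.000918). This value lies at the fold limit, and 35.2% of its exon bases are shared with another gene. It dropped under the limit without either of LNCaP-enzaR replicates 2 and 3 or parental replicates 2 and 3, with values of 0.54 to 0.55. The same held when library totals were used without TMM factors (0.55).

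Around MIPOL1 on chromosome 14 fewer genes were called. Of 82 genes within 3 Mb other than MIPOL1, TTC6 and SLC25A21, 43 passed the filter, and 5 were higher and 5 lower, or 23.3%, beside the 42.7% of all genes. The median log2 fold change of these 43 was −0.01. The 5 higher genes all had low levels, with means of at most 0.389 CPM in LNCaP-enzaR. With at least 10 counts required in every library, 0 were higher and 4 lower of 34 tested. With that filter 3587 were higher and 3153 lower of all 16331 genes tested. Of the 24 protein-coding genes among the 43, 1 was higher (4.17%) and 4 were lower (16.7%). Over all protein-coding genes tested, 23.4% were higher and 20.9% lower.

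The 4 lower protein-coding genes were NFKBIA, PNN, BAZ1A and PSMA6. NFKBIA, which codes for the inhibitor that holds NF-κB in the cytoplasm, fell from 98.5 ± 3.42 to 35.3 ± 1.51 CPM (log2 fold change −1.48, adjusted p = 4.09e-11). PNN, a splicing-associated gene, fell from 238 ± 9.57 to 136 ± 5.92 CPM (log2 fold change −0.81, adjusted p = 1.2e-08). BAZ1A, a chromatin remodelling subunit gene, fell from 121 ± 2.17 to 64.0 ± 5.44 CPM (log2 fold change −0.92, adjusted p = 1.64e-08), with 12.4% of its exon bases shared. PSMA6, a proteasome subunit gene, was at 22.0 ± 0.904 and 14.6 ± 1.11 CPM (log2 fold change −0.59, adjusted p = 1.14e-05), at the fold limit, and was not called in 7 alternatives, among them DESeq2 (−0.58), upper-quartile scaling (−0.49), and the fits without LNCaP-enzaR replicate 3 (−0.52) or parental replicate 2 (−0.56).

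Close to the members, PAX9, a paired-box transcription factor gene next to SLC25A21, was at 10.7 ± 0.299 and 7.52 ± 0.407 CPM, short of the fold limit (log2 fold change −0.51, adjusted p = 0.000117), with 25.4% of its exon bases shared. SSTR1, a somatostatin receptor gene beyond TTC6, did not pass the filter, with counts of 3, 0 and 3 against 7, 9 and 0. Between MIPOL1 and FOXA1 lies RP11-356O9.2 (ENSG00000259087.5), a long noncoding RNA gene from 37556158 to 37567095, picked out after its values had been seen. It had 93, 82 and 68 counts in the parental libraries and 12, 17 and 25 in LNCaP-enzaR, and its log2 fold change of −2.23 (SE 0.314) had an adjusted p of 2.04e-05. Its neighbour RP11-356O9.1 had 33, 33 and 35 counts against 18, 27 and 15, which did not pass the test (log2 fold change −0.81, adjusted p = 0.0899).

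**Figure D3:**
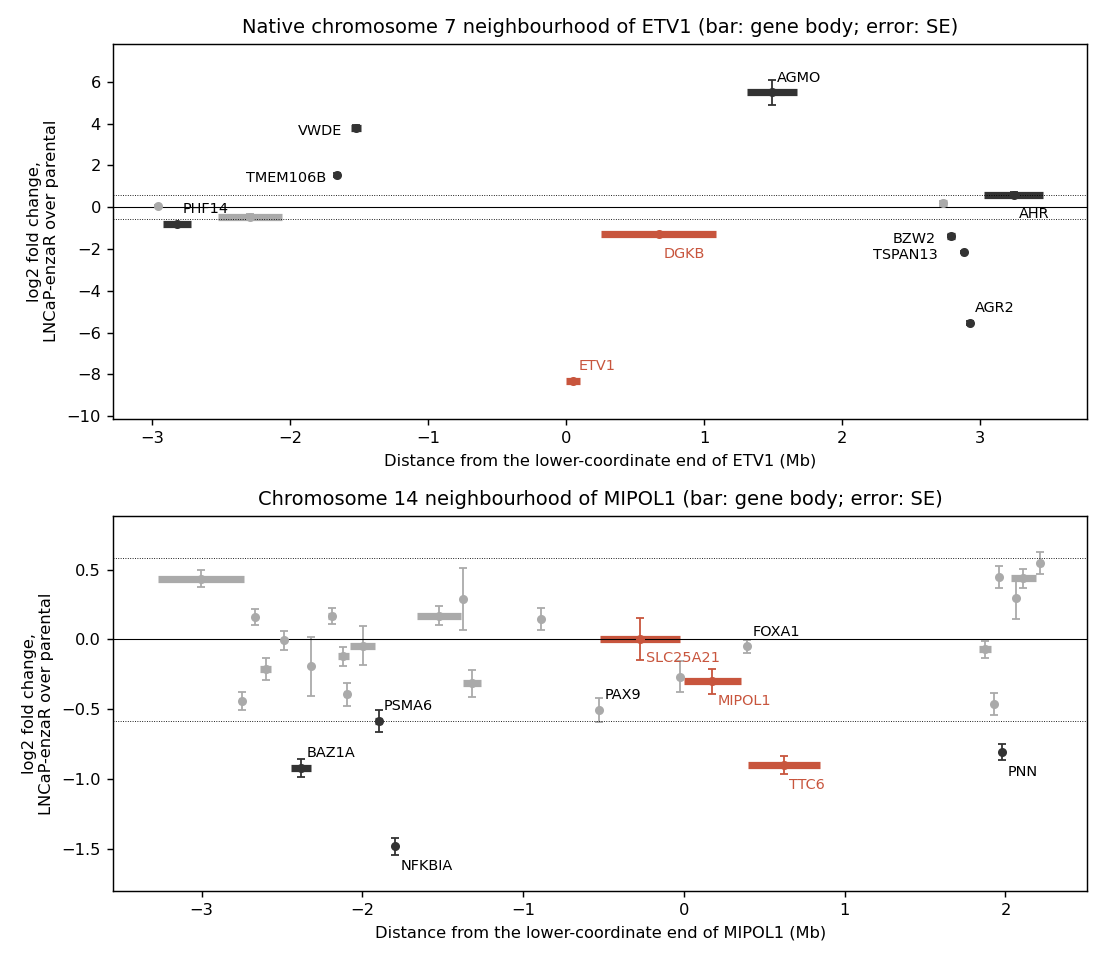
log2 fold change (LNCaP-enzaR over parental) of genes within 3 Mb of ETV1 on chromosome 7 and of MIPOL1 on chromosome 14, by distance from the lower-coordinate end of each; thick bars span gene bodies, thin bars are SE and dotted lines the 1.5-fold limits. Genes with a mean of at least 1 CPM in either line, and AGMO, whose value rests on 3, 0 and 1 parental counts, are drawn, with named called genes black, genes not called grey and the untested locus genes orange. ETV1 at −8.29 lies below every neighbour, and FOXA1 sits near 0 between MIPOL1 and TTC6.

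The relatives of ETV1 moved the other way. ETV5 had 26, 24 and 8 counts in the parental libraries and 685, 815 and 689 in LNCaP-enzaR, a 36.2-fold rise from 0.216 ± 0.099 to 8.04 ± 1.15 CPM (adjusted p = 7.69e-11, log2 fold change 5.18 with SE 0.225). ETV4 had 2, 22 and 5 counts against 101, 107 and 136 (log2 fold change 3.49, SE 0.478, adjusted p = 1.58e-05). The 22 counts of parental replicate 2 weigh on that value, which was 4.88 without this library. ETV4 and ETV5 thus rose in all 3 LNCaP-enzaR libraries, while ETV1 was lower in all 3.

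Per length, the levels of the family changed order. In parental LNCaP, ETV1 was at 37.1 RPKM, ETV5 at 0.0373 and ETV4 at 0.031. In LNCaP-enzaR, ETV5 led at 1.39 RPKM, followed by ETV4 at 0.356 and ETV1 at 0.118. ETV1 made up 99.7% to 99.9% of the summed RPKM of the 3 genes in the parental libraries and 6.17%, 5.94% and 6.94% in the LNCaP-enzaR libraries. The rise of ETV4 and ETV5 did not bring the summed level near that of ETV1 in parental LNCaP.

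The genes known to hold PEA3 factors in check showed small differences. Together with ETV4 and ETV5 the list had 9 members, all tested, with a median log2 fold change of 0.04. The 2 called genes (22.2%), both higher, were ETV4 and ETV5 themselves, and the 7 regulators were not called. The 22.2% is near the 23.3% of all genes tested that were higher. In either direction 42.7% of all genes were called, and their median log2 fold change over all genes tested was 0.01. CIC, the repressor of PEA3 gene transcription, was at 50.8 ± 2.05 CPM in parental LNCaP and 74.7 ± 7.08 CPM in LNCaP-enzaR (log2 fold change 0.56, adjusted p = 8.22e-06), just short of the fold limit. It passed that limit without LNCaP-enzaR replicate 2 (0.61) or 3 (0.59) and with upper-quartile scaling (0.66). Its partners ATXN1L and ATXN1 had log2 fold changes of −0.54 and 0.04.

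COP1, the ubiquitin ligase that marks PEA3 proteins for degradation, was at 42.6 and 37.8 CPM (log2 fold change −0.17, adjusted p = 0.0229). The other parts of that ligase had log2 fold changes of −0.36 for DDB1, −0.41 for CUL4A and 0.50 for DET1, the last with an adjusted p of 0.205. DET1 had only 31 to 75 counts per library, and 35.9% of its exon bases are shared. Its log2 fold change ranged from 0.30 to 0.76 as single libraries were left out. With TMM scaling and all 6 libraries, none of these 4 reached the fold limit. Protein levels were not measured.

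Genes reported elsewhere as ETV1 targets did not share 1 direction. Of 13 listed genes 10 passed the filter, and 5 were higher, 3 lower and 2 not called, with a median log2 fold change of 0.63. Over all genes tested, 23.3% were higher and 19.5% lower, with a median of 0.01. MMP2, MMP9 and PLAU did not pass the filter. The choice of this list came from general knowledge of several tissues, and not every gene on it need be a target in prostate cells.

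The 3 lower genes were TERT, TWIST1 and MMP7. TERT, the catalytic subunit gene of telomerase, had 305, 345 and 218 counts in parental LNCaP and 17, 8 and 20 in LNCaP-enzaR (log2 fold change −4.32, SE 0.259, adjusted p = 2.4e-09). TWIST1, a transcription factor gene of epithelial to mesenchymal transition, fell from 26.8 ± 0.534 to 7.29 ± 1.07 CPM (log2 fold change −1.88, adjusted p = 4.38e-10). MMP7, which codes for the matrix protease matrilysin, had 46, 29 and 35 counts against 3, 3 and 1 (adjusted p = 2.88e-05).

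The higher genes included both feedback inhibitors of MAPK signalling on the list. DUSP6, the ERK phosphatase gene, had 13, 12 and 3 counts against 70, 103 and 97 (log2 fold change 3.20, SE 0.394, adjusted p = 5.33e-06), with 28.6% of its exon bases shared with another gene. SPRY4 rose from 5.50 ± 0.256 to 9.33 ± 1.30 CPM (log2 fold change 0.76, adjusted p = 3.01e-05). VIM, the mesenchymal intermediate filament gene, rose from 2.85 ± 0.135 to 6.41 ± 0.544 CPM (log2 fold change 1.17, adjusted p = 4.88e-07), with 24.6% of its exon bases shared.

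The matrix metalloproteinase genes MMP1 and MMP13 were higher at very low levels. MMP1 had 0, 1 and 4 counts in parental LNCaP and 24, 22 and 21 in LNCaP-enzaR (adjusted p = 0.000949). MMP13 rose from 0.345 to 0.805 CPM (log2 fold change 1.21, adjusted p = 0.00436). SMAD7, an inhibitor of TGF-β signalling, was at 32.2 and 45.2 CPM (log2 fold change 0.49, adjusted p = 7.77e-06), short of the fold limit except with upper-quartile scaling (0.59), and YAP1 had a log2 fold change of −0.12 (adjusted p = 0.0825).

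Genes that serve as 5′ partners of ETS fusions in prostate cancer were mostly lower. All 11 listed were tested, and 7 were lower and 4 not called, with a median log2 fold change of −0.96, beside 19.5% of all genes lower and a median of 0.01. SLC45A3, a prostate-enriched membrane transporter gene, fell from 372 ± 18.5 to 14 ± 0.523 CPM (log2 fold change −4.73). This was the largest difference on the list and yet much smaller than that of ETV1.

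Of the 7 partners known to be induced by androgen, 5 were lower. Beside SLC45A3 these were ACSL3, from 413 ± 16.6 to 81.6 ± 6.46 CPM (log2 fold change −2.34, adjusted p = 1.05e-12), FKBP5, from 263 ± 6.44 to 55.3 ± 3.19 CPM (−2.25, adjusted p = 6.16e-13), KLK2, from 379 ± 7.34 to 94.9 ± 8.55 CPM (−2.00, adjusted p = 4.84e-12), and CANT1 (−0.96, adjusted p = 1.51e-09). TMPRSS2, the most frequent ETS partner in prostate cancer, was at 85.0 ± 5.38 and 94.8 ± 1.48 CPM, a log2 fold change of 0.16 under the fold limit (adjusted p = 0.0305). HERPUD1 was at −0.52, also under it.

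Of the 4 partners without androgen induction, HNRNPA2B1, a reported partner of ETV1 that codes for an RNA-binding protein, fell from 1086 ± 18.4 to 559 ± 7.19 CPM (log2 fold change −0.96, adjusted p = 3.96e-10). FOXP1, a forkhead transcription factor gene, fell from 19.2 to 9.89 CPM (log2 fold change −0.96, adjusted p = 2.29e-07). DDX5 and UBTF had log2 fold changes of −0.27 and −0.33 and were not called.

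**Figure D4:**
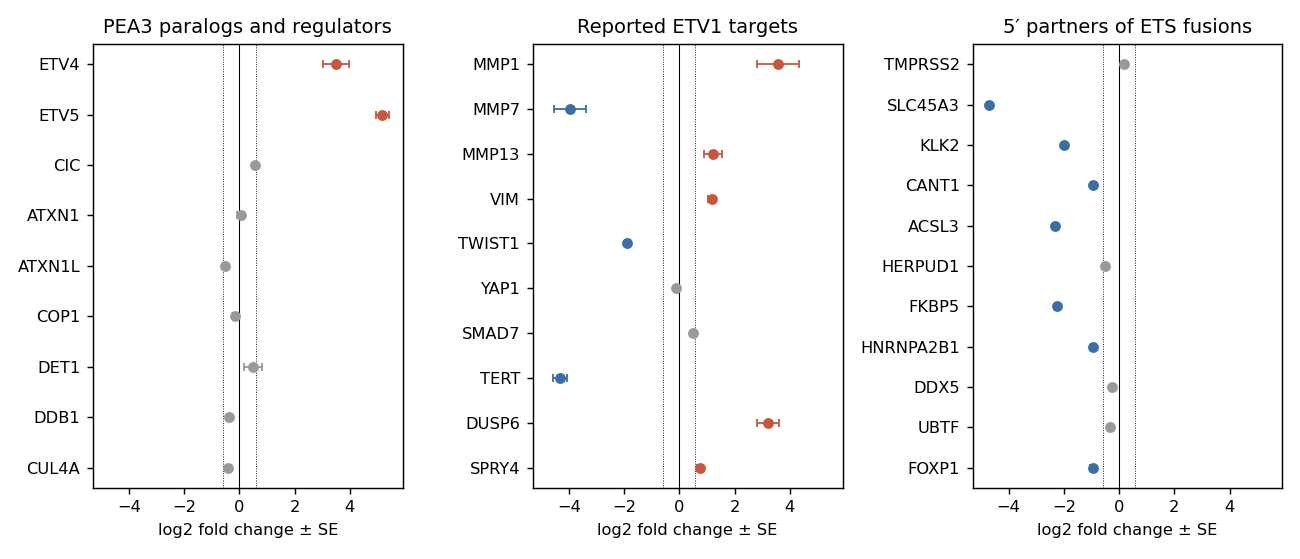
log2 fold change ± SE (LNCaP-enzaR over parental) of every tested gene of the 3 lists; dotted lines mark the 1.5-fold limits, and genes called higher are orange, called lower blue and not called grey. ETV5 at 5.18 and ETV4 at 3.49 lead the first panel, the second splits both ways, and in the third 7 of 11 genes are lower.

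The genes whose pattern over the 6 libraries was most like that of ETV1 were RIPOR2, ST6GALNAC1, MT1G, LPAR3 and ERVMER34-1. Likeness was the root mean square difference of log2 CPM, each gene centred on its own mean, and it was 0.29, 0.30, 0.37, 0.41 and 0.43 in that order. Since the libraries form 2 groups, the measure mostly follows the size of the fall, and a prior count of 2, added before taking logs, limits that size for genes with few or no counts in LNCaP-enzaR, such as MT1G (6, 3 and 2 counts) and ERVMER34-1. RIPOR2 had 6322, 6232 and 5370 counts in parental LNCaP and 13, 23 and 12 in LNCaP-enzaR, and LPAR3, a lysophosphatidic acid receptor gene, had 6665, 6485 and 5557 against 19, 34 and 44. ERVMER34-1 had 357, 349 and 292 counts and was listed at 0 in all 3 LNCaP-enzaR libraries. None of the 5 lies on chromosome 7 or 14; they are on chromosomes 6, 17, 16, 1 and 4.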

How the data were processed

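Per the labels and the study's methods, the authors trimmed reads with Cutadapt, aligned them to GRCh38 with STAR and counted them per GENCODE gene with featureCounts. The deposited values are raw counts per gene for 6 libraries, and the strand setting and the handling of multimapping reads were not stated. Here counts were filtered (filterByExpr), scaled with TMM and tested with edgeR 4.0.16 (quasi-likelihood, R 4.3.3) over all 19711 genes kept, with Benjamini-Hochberg adjustment, and called where the adjusted p was 0.05 or less and the fold 1.5 or more. CPM is counts per 1000000 of the scaled library. The procedure was tested on simulated data in which few genes were changed. That setting does not cover a contrast with 42.7% of genes called, or calls near the fold limit.

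The 5 genes, gene lists and tests were chosen with earlier results of these data known, so the 5 genes carry no p. Genes named were the 5 genes, called protein-coding genes within 3 Mb with a mean of at least 5 CPM, nearest protein-coding neighbours, all tested genes of the 3 lists, and the 5 protein-coding genes most like ETV1. One gene that this rule names is not reported here. Exon lengths and overlaps came from GENCODE v44, promoter windows from RefSeq. Alternatives were DESeq2 1.42.0, other scalings, filters, fold limits and window sizes, a replicate block, and leaving out each library.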

Additional observations from a re-analysis of the deposited data

How the results depend on the processing

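ETV1 had a log2 fold change of −8.29, which was −8.19 with upper-quartile scaling and between −8.33 and −8.25 as each library was left out. With the replicate number as a block it was again −8.29, and 8212 genes were called instead of 8425, but the numbers share no origin in the labels and the deviations of same-numbered libraries had correlations of −0.065 to −0.00041, with 0 of 6 libraries closest to their own number, so the block was not used. The total of 8425 called genes was 13074 without a fold limit, 5561 with a fold of at least 2 and 8372 to 8517 as single libraries were left out. Around ETV1 on chromosome 7 the 11 calls became 9 to 11 as libraries were left out, and a window of 1 Mb held no tested gene and gave no count. Around MIPOL1 the 10 calls became 4 with at least 10 counts in every library, 4 with protein-coding genes only, 4 in a window of 1 Mb, 24 without a fold limit and 8 to 10 as libraries were left out. For the PEA3 relatives and regulators, the 2 calls became 7 without a fold limit and 2 to 3 as libraries were left out, and 0 when each library had to hold 10 counts or more, where ETV4 and ETV5 were no longer tested; edgeR then gave 5 of 7 genes, and DESeq2 in its own fit 7 of 9, an unadjusted p under 0.05. The 8 called targets became 4 with that filter and stayed at 8 as libraries were left out. The 7 called fusion partners became 11 without a fold limit and 4 with a fold of at least 2, and stayed at 7 as libraries were left out. At the 1.5-fold limit, 38 of 44 other tested genes named kept their direction and their side of the threshold under every scaling, filter, tool, block and left-out library in which they could be tested, 7 of the 44 not being testable with 10 counts in each library (ETV4, ETV5, AGMO, MMP1, MMP7, TERT and DUSP6). Of the other 6, AHR, PSMA6, CIC and SMAD7, near the fold limit, crossed it in some, and ATXN1 and FOXA1, which were not called, turned sign around 0, ATXN1 to −0.08 without parental replicate 1 and −0.01 without LNCaP-enzaR replicate 3, FOXA1 to 0.05 with upper-quartile scaling.

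Depth did not limit ETV1, but ETV4, ETV5, AGMO, MMP1, MMP7, TERT and DUSP6 rest on few counts in at least 1 line. The lines differ in 1 selection, so the line and the selection cannot be told apart.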

Other observations

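Few genes of comparable level in parental LNCaP were lost as fully as ETV1. Of 2219 genes with a parental mean of at least 100 CPM, 5 were below 5 CPM in LNCaP-enzaR, and ETV1 had the second lowest log2 fold change among the 2219. The others of the 5, picked out after their values had been seen, were SLC22A3, an organic cation transporter gene, H2AJ, a histone H2A variant gene, GUCY1A1, a subunit gene of the nitric oxide receptor guanylate cyclase, and SLC1A5, a glutamine transporter gene. SLC22A3 had 19350, 18410 and 14743 counts in parental LNCaP and 12, 16 and 11 in LNCaP-enzaR. SLC1A5, the least reduced of them, went from 208 ± 12.1 to 4.49 ± 0.888 CPM. None of these 4 genes lies on chromosome 7 or 14.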
